A study of Mus musculus with 4 samples.

Results

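The cytosolic ribosomal protein genes encode the proteins of the large (60S) and small (40S) subunits of the ribosome that translates nuclear mRNAs. They were taken by symbol from the GENCODE M21 annotation of the mouse genome build GRCm38, as protein-coding Rpl, Rps, Rplp and Rpsa genes, with pseudogenes, Rps27l and the Rps6k kinases left out. Symbols with 2 letters after the number, such as Rpl36al, were not matched either. The rule found 82 genes among the 22594 genes in the table, 51 of the large subunit and 31 of the small subunit, with 228 listed transcripts, and used no measured value. The study holds 4 RNA libraries from cultured lines of endometrial cancer of the mouse: the line MSH2KO21B gave 2 and the line MECPK gave 2. The labels give no treatment or time, and do not say how either line was made, how many clones it holds, whether one was derived from the other or whether replicates came from separate cultures. The line names are therefore used only as labels, and each p-value measures the spread between these libraries, which may be technical.

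A ribosome holds nearly all of these proteins in equal number, so cells make the whole set together and degrade what is left unassembled. The mRNAs are among the most abundant in growing cells and carry a run of pyrimidines at their 5′ end, called the TOP motif, through which mTORC1 signalling and the binding protein Larp1 control their translation. Many of the genes hold small nucleolar RNAs in their introns, and the mammalian genome holds many processed copies of their mRNAs.

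Values are TPM, an abundance per unit of length that adds up to 1000000 in every library, as deposited by the authors and summed here over the transcripts of each gene. A value is a share of a library and not an amount per cell, so fewer ribosomal protein transcripts per cell and more of other transcripts cannot be told apart. A difference is MSH2KO21B minus MECPK on the log2(TPM + 1) scale, and a gene was called at a Benjamini-Hochberg adjusted p under 0.05 in limma over the 11921 genes that reached 1 TPM in 2 or more libraries. TPM keeps no read depth, so the counting error behind each value is unknown. The lines differed across most of the transcriptome: 76.2% of the genes tested were called, and the median gene was 0.19 higher in MSH2KO21B. The 6 epithelial markers summed to 345 and 333 TPM in MSH2KO21B and to 5290 and 5233 TPM in MECPK, with all 6 averaging at least 1 TPM in each line; Cdh1 of that list lay the other way, at 167 and 165 TPM in MSH2KO21B and 100.3 and 99.5 TPM in MECPK. The stromal list summed to 523 and 532 TPM in MSH2KO21B and to 2.33 and 2.03 TPM in MECPK; Vim made nearly all of it, and Col1a1, Col3a1, Dcn, Lum and Pdgfrb were under 1 TPM in every library. Of 5 endometrial markers, 2 averaged at least 1 TPM in MSH2KO21B and 4 in MECPK, and Pgr was listed at 0 in all 4 libraries. Of the immune list, 2 of 5 averaged at least 1 TPM in MSH2KO21B and 1 of 5 in MECPK, with sums of 3.70 to 6.002 TPM over the 4 libraries and Cd3e listed at 0. Of the endothelial list, 2 of 3 averaged at least 1 TPM in MSH2KO21B and 0 of 3 in MECPK, with sums of 2.76 and 1.81 TPM in MSH2KO21B and 0.0638 and 0.0339 TPM in MECPK, and Kdr listed at 0. The part of such differences between the lines in the ribosomal protein values was not tested.

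The start of transcription of 6 genes is shown because these are the ones with the largest falls and rises described further on, and because the TOP motif lies there. Each line gives 15 bases before and 15 bases from the annotated start, 5′ to 3′ on the gene's strand, from RefSeq on GRCm38.p6. Capitals mark a C followed by at least 4 pyrimidines (C or T), where the window holds one. The windows lie at chr10:80292416-80292445 (plus strand, Rps15), chr10:128549154-128549183 (minus, Rpl41), chr10:128626492-128626521 (minus, Rps26), chr3:28805493-28805522 (plus, Rpl22l1), chrX:37085208-37085237 (minus, Rpl39) and chr4:136053379-136053408 (minus, Rpl11).
Rps15: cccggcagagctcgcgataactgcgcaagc
Rpl41: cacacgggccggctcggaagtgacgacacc
Rps26: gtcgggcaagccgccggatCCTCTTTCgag
Rpl22l1: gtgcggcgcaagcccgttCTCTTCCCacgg
Rpl39: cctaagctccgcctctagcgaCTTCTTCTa
Rpl11: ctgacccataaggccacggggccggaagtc
The run was absent from 2 of the 3 windows of genes that fell and from 1 of the 3 of genes that rose. Over all annotated starts, read on the gene's strand only and with no other motif searched, 36.4% of 32851 windows held the run, against 66.1% of the 62 ribosomal protein genes with an entry counted over any of their starts (58.9% of their 73 windows). It was present in 22 of 34 genes lower in MSH2KO21B (64.7%), in 2 of 4 genes higher there, and in 14 of 21 genes with no call (66.7%). The share was thus close in genes that fell and in genes with no call. A window without the run says only that these letters are missing near that annotated start.

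Ribosomal protein transcripts made a smaller share of the transcriptome in MSH2KO21B. The 82 genes together held 13.1% and 12.8% of all TPM in the MSH2KO21B libraries, against 17.2% and 16.0% in the MECPK libraries. The means were 13.0% ± 0.218 and 16.6% ± 0.787 (SD, n = 2 each), a ratio of 0.780, and the difference of -3.65 percentage points was larger than the spread within either line. Large-subunit genes held 8.24% and 8.09% in MSH2KO21B and 10.8% and 10.1% in MECPK, and small-subunit genes held 4.87% and 4.71% against 6.32% and 5.91%. Both subunits therefore had nearly the same ratio, 0.778 for the large and 0.783 for the small. Rpl41 alone held 0.890% and 0.915% in MSH2KO21B and 1.68% and 1.57% in MECPK. The mitochondrially encoded genes, which share the same total, held 4.26% and 4.28% in MSH2KO21B and 1.92% and 2.61% in MECPK. With each library rescaled without them, the members called lower were 46 in place of 48.

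Of the 82 genes, 79 passed the filter on low values, 48 fell in MSH2KO21B (60.8%), 4 rose (5.06%) and 27 were not called. Over all genes tested, 29.7% were called lower and 46.6% higher. The ribosomal protein genes had a median difference of -0.29, or -0.48 relative to the median of all genes, with quartiles of -0.52 and -0.05 and a range of -0.86 to 0.65. The relative median was -0.21 after quantile normalization and -0.26 with no filter on low values. With no filter the median of all genes was 0, where it was 0.19 in the main fit. The members' own median was -0.26 there, so mostly the reference moved. The median ratio of the 2 lines was 0.821. The 2 libraries of a line did not overlap those of the other in 65 genes, 55 lower and 10 higher in MSH2KO21B, against 88.9% of all genes tested. The 3 genes that did not pass were Rpl10l and Rpl39l, listed at 0 in every library, and Rpl3l, listed at 0 in both MSH2KO21B libraries and at 0.0426 and 0.0399 TPM in the MECPK libraries. These 3 are gene copies best known from testis (Rpl10l, Rpl39l) and muscle (Rpl3l). In the large subunit 30 of 48 tested genes fell and 4 rose, with a median of -0.27, and in the small subunit 18 of 31 fell and none rose, with a median of -0.29. Genes with a small nucleolar RNA annotated inside them were much like the others: 18 of 30 fell and 1 rose with a median of -0.26, against 30 of 49 that fell, 3 that rose and a median of -0.29 among genes with none. Without MSH2KO21B replicate 1 or replicate 2, the falls called were 32 and 29, and without MECPK replicate 1 or replicate 2 they were 42 and 52. The genes that rose numbered 1 without either MSH2KO21B library or without MECPK replicate 2, and 6 without MECPK replicate 1. After quantile normalization 46 of the 79 were called lower and 7 higher, against 38.4% and 35.6% of all genes tested. With the libraries scaled by median ratios 62 were called lower and 1 higher, against 37.1% and 37.8% of all genes. These scalings moved the median of all genes to -0.03 and 0.01. With no filter on low values 32 were called lower and 1 higher, against 3210 and 5527 of all 22594 genes. Over all genes, too, fewer were called with a library left out than in the main fit. The median of the members was then -0.25 to -0.31, and that of all genes 0.18 to 0.21.

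**Figure D1:**
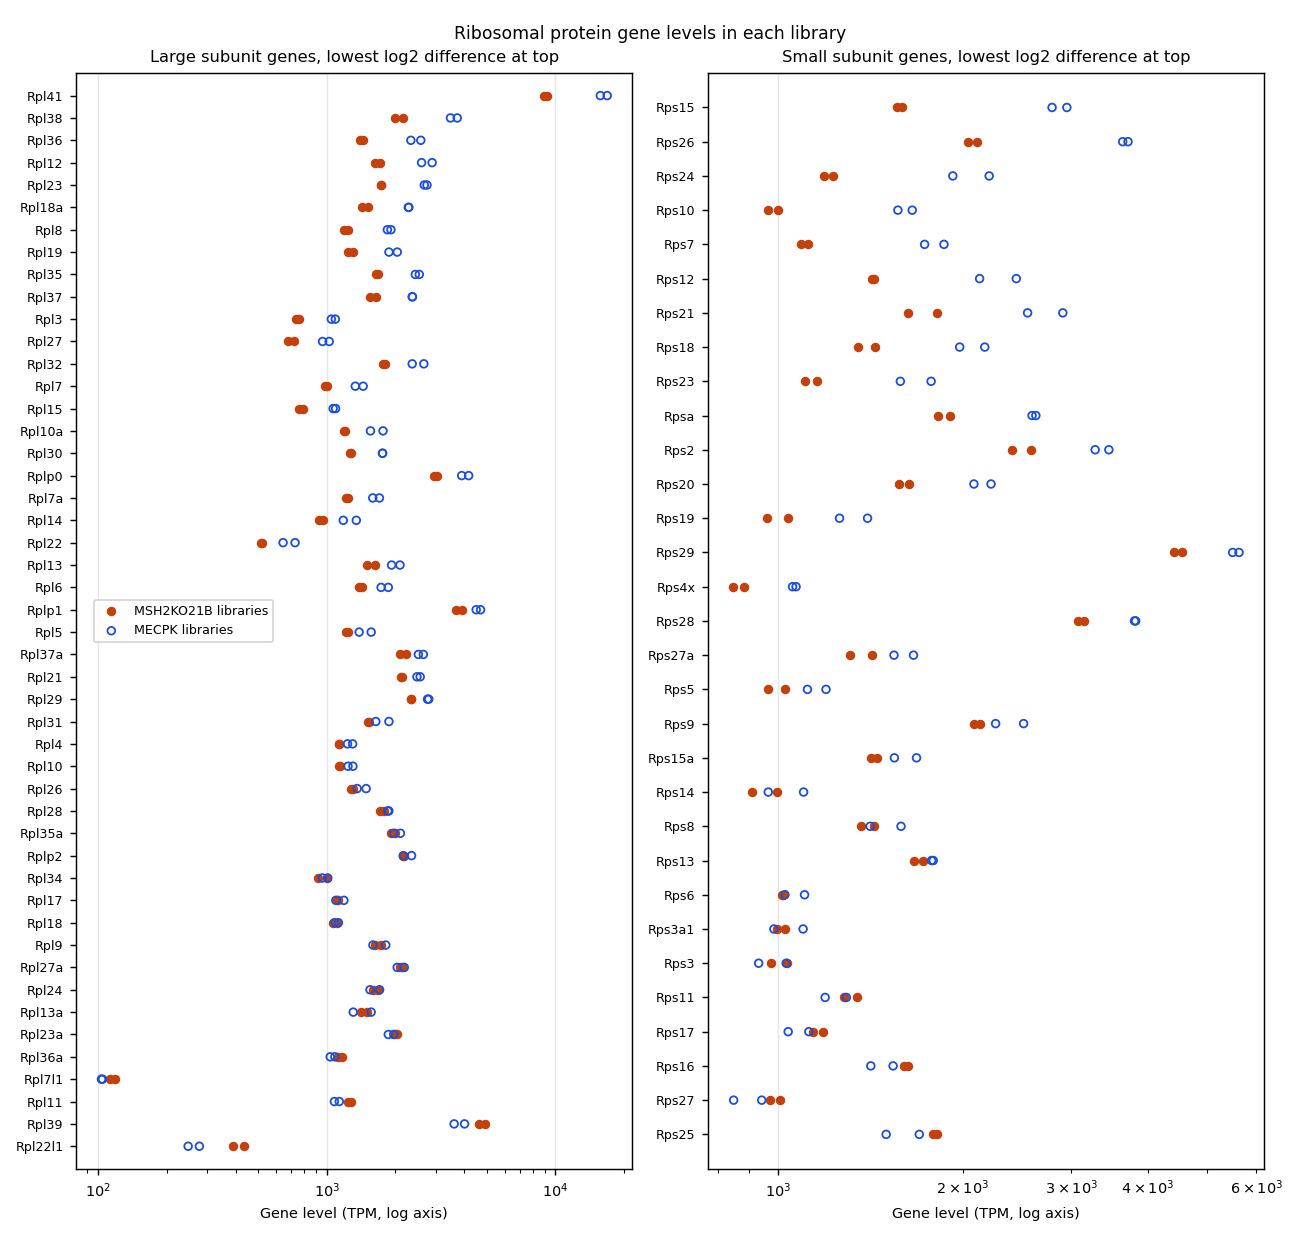
TPM of the 79 tested ribosomal protein genes in each library on a logarithmic axis, large-subunit genes in the left panel and small-subunit genes in the right panel, ordered by their log2 difference. Filled points are the 2 MSH2KO21B libraries and open points the 2 MECPK libraries; the lines stand apart for Rps15 and Rpl41 at the top, overlap for many genes further down, and Rpl22l1 at the bottom left is higher in MSH2KO21B.

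The steepest fall was that of Rps15, a small-subunit protein near the decoding region, at 1596 and 1561 TPM in MSH2KO21B and 2953 and 2794 TPM in MECPK. Its difference was -0.86 (SE 0.05, adjusted p = 0.000194 in limma). Both MSH2KO21B libraries lay well under both MECPK libraries. Rpl41, which encodes a very short basic peptide of the large subunit, had 8898 and 9154 TPM in MSH2KO21B and 16845 and 15725 TPM in MECPK, a difference of -0.85 (SE 0.07, adjusted p = 0.00041). It was the most abundant ribosomal protein gene in all 4 libraries. Rpl41 lost its call after quantile normalization. Rps26, a small-subunit protein at the mRNA exit, had 2038 and 2113 TPM in MSH2KO21B and 3640 and 3713 TPM in MECPK (difference -0.82, SE 0.05, adjusted p = 0.00019).

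These 3 genes and Rps12, a small-subunit protein (1436 and 1424 TPM in MSH2KO21B, 2444 and 2130 TPM in MECPK, difference -0.67), are the 4 members on chromosome 10. The other members with the largest falls lie on 5 chromosomes. On chromosome 11, Rpl38, a large-subunit protein known in mice for the tail-short phenotype, had 2160 and 1998 TPM in MSH2KO21B and 3724 and 3478 TPM in MECPK (difference -0.79). Rpl23, a large-subunit protein that can bind Mdm2, had 1727 TPM in each MSH2KO21B library and 2746 and 2673 TPM in MECPK (difference -0.65). In both genes the lines did not overlap. On chromosome 17, Rpl36 of the large subunit had 1448 and 1397 TPM in MSH2KO21B and 2580 and 2335 TPM in MECPK (difference -0.79), and Rps10 of the small subunit had 1001 and 966 TPM in MSH2KO21B and 1655 and 1569 TPM in MECPK (difference -0.71). Rps24 on chromosome 14, a small-subunit protein mutated in Diamond-Blackfan anaemia, had 1191 and 1229 TPM in MSH2KO21B and 2208 and 1927 TPM in MECPK (difference -0.77). Rps7 on chromosome 12, a small-subunit protein of the same disease list, had 1120 and 1089 TPM in MSH2KO21B and 1864 and 1734 TPM in MECPK (difference -0.70). These 2 genes lay apart between the lines as well. Chromosome 2 held Rpl12, a large-subunit protein at the base of the stalk, with 1704 and 1633 TPM in MSH2KO21B and 2892 and 2601 TPM in MECPK (difference -0.72), and Rps21 of the small subunit with 1819 and 1630 TPM in MSH2KO21B and 2909 and 2549 TPM in MECPK (difference -0.66). For the 12 genes with the most negative differences the adjusted p ran between 0.00019 and 0.00284.

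Only 4 ribosomal protein genes rose. Rpl22l1, a paralog of Rpl22, had 436 and 388 TPM in MSH2KO21B and 278 and 248 TPM in MECPK, a difference of 0.65 (SE 0.09, adjusted p = 0.00234 in limma). It was the gene called higher under all 17 settings. Rpl39, a small large-subunit protein of the exit tunnel encoded on the X chromosome, had 4903 and 4642 TPM in MSH2KO21B and 4008 and 3609 TPM in MECPK (difference 0.33, SE 0.08, adjusted p = 0.0145). Rpl11, a large-subunit protein that binds the 5S ribosomal RNA, had 1280 and 1241 TPM in MSH2KO21B and 1136 and 1081 TPM in MECPK (difference 0.18, SE 0.05, adjusted p = 0.0261). Rpl7l1, a paralog of Rpl7, had 119 and 113 TPM in MSH2KO21B and 104 and 105 TPM in MECPK (difference 0.15, SE 0.05, adjusted p = 0.0444). All 4 genes were higher in both MSH2KO21B libraries than in both MECPK libraries. With median-ratio scaling Rpl39 was no longer called and the differences of Rpl11 and Rpl7l1 turned to -0.0039 and -0.0347. Rps25 and Rps27, both of the small subunit, had positive differences of 0.17 and 0.15, on either side of that of Rpl7l1, and were not called (adjusted p = 0.0908 and 0.109 in limma); both differences turned negative under the same scaling, and both were called without MECPK replicate 1 (0.26 and 0.22). Of the 4 rises, Rpl22l1 alone was called whichever library was left out. Rpl39 was 0.25 to 0.40 and Rpl11 was 0.15 to 0.22 with a library left out, and both kept a call only without MECPK replicate 1 (adjusted p = 0.0196 and 0.034 in limma). Rpl7l1 was 0.11 to 0.19 and lost its call whichever of the 4 libraries was left out (adjusted p = 0.0625 to 0.156 in limma).

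The stalk, which recruits the elongation factors, is built from Rplp0 and pairs of Rplp1 and Rplp2. Rplp0 had 3043 and 2950 TPM in MSH2KO21B and 4177 and 3895 TPM in MECPK, and Rplp1 had 3895 and 3667 TPM in MSH2KO21B and 4710 and 4506 TPM in MECPK. Both fell, with differences of -0.43 and -0.29. Rplp2 had 2165 and 2183 TPM in MSH2KO21B and 2351 and 2163 TPM in MECPK, with overlapping lines and a difference of -0.05 that was not called and turned to 0.0691 after quantile normalization. Whether Rplp2 differed from its partners in its change was not tested. Rplp0 lost its call without MSH2KO21B replicate 2 (-0.41), and Rplp1, at -0.24 to -0.33 with a library left out, kept its call only without MECPK replicate 2.

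Some loci make ubiquitin or a ubiquitin-like protein fused to a ribosomal protein, among them Rps27a and Fau, and both of these fell. Rps27a had 1421 and 1313 TPM in MSH2KO21B and 1663 and 1546 TPM in MECPK (difference -0.23). Fau, which makes the fusion with eS30 and is no member by symbol, had 810 and 752 TPM in MSH2KO21B and 2084 and 1931 TPM in MECPK, a difference of -1.36 (SE 0.07). Its fall was larger than that of any of the 79 tested members. Rps27a lost its call after quantile normalization. Rps27a was -0.17 to -0.29 with a library left out and kept its call only without MECPK replicate 2.

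Rpl5, Rpl11 and Rpl23 are the large-subunit proteins best known for binding Mdm2 when ribosome assembly is disturbed; Rpl5 and Rpl11 also carry the 5S RNA together. Rpl5 had 1241 and 1218 TPM in MSH2KO21B and 1566 and 1387 TPM in MECPK and fell by 0.26 on the log2 scale, while Rpl11 rose by 0.18 and Rpl23 fell by 0.65, as given above. Without either MSH2KO21B library Rpl5 was not called (-0.27 and -0.25). The 2 partners of the 5S complex thus lay on opposite sides of 0 in the main fit, but the rise of Rpl11 turned negative with median-ratio scaling. Relative to the median of all genes both were negative, Rpl5 at -0.455 and Rpl11 at -0.0083. The difference between Rpl5 and Rpl11 was not tested. Of the small-subunit genes chosen by role, Rpsa, the laminin-receptor homologue, had 1905 and 1821 TPM in MSH2KO21B and 2629 and 2593 TPM in MECPK and fell by 0.49. Rps6, the target of the S6 kinases, had 1020 and 1015 TPM in MSH2KO21B and 1106 and 1028 TPM in MECPK, a difference of -0.07 that was not called. Rps3, at the mRNA entry, had 1034 and 975 TPM in MSH2KO21B and 1033 and 931 TPM in MECPK, a difference of 0.03 that was not called and whose sign changed with the scaling. Of 22 Diamond-Blackfan anaemia genes in the set, 13 fell (59.1%), 1 rose (4.55%) and 8 were not called, with a median of -0.30. These shares were near the 60.8% and 5.06% of all tested members, against 29.7% and 46.6% of all genes tested.

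Paralogs outside the members, such as Rps27l and Rpl36al, were not compared with their parents. In the 2 pairs with an expressed paralog among the members, the parent fell and the copy was called higher. In the second pair that rise was not stable. Rpl22 had 521 and 516 TPM in MSH2KO21B and 728 and 645 TPM in MECPK (difference -0.40, adjusted p = 0.00593 in limma), beside the rise of Rpl22l1. Rpl7 had 1007 and 983 TPM in MSH2KO21B and 1444 and 1335 TPM in MECPK (difference -0.48, adjusted p = 0.00164), beside the small rise of Rpl7l1, which lost its call whichever library was left out and turned to -0.0347 with median-ratio scaling. Without either MSH2KO21B library Rpl22 was not called (-0.41 and -0.39). The difference between parent and copy was not tested. In 3 more pairs the paralog was listed at 0 or under 0.1 TPM. Of these parents, Rpl3 (754 and 734 TPM in MSH2KO21B, 1092 and 1049 TPM in MECPK) fell by 0.52, Rpl10 (1144 and 1138 TPM in MSH2KO21B, 1303 and 1240 TPM in MECPK) fell by 0.16, and Rpl39 rose. Rps4x, the X-linked small-subunit gene, had 882 and 847 TPM in MSH2KO21B and 1071 and 1058 TPM in MECPK and fell by 0.30. Rpl10 was -0.12 to -0.19 with a library left out and kept its call only without MECPK replicate 2.

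The place of a gene in the genome went with its difference. On each of the 19 chromosomes that hold a tested member, the median of the members was below the median of the other genes tested there. The gap was between -0.34 and -0.73, with a median of -0.60. The 4 members on chromosome 10 all fell, with a median of -0.84, where the 575 other genes had a median of -0.21. All 4 also fell on chromosome 2, with a median of -0.62 against 0.01 for the other genes, and on chromosome 15, with a median of -0.55 against 0.02. Chromosome 7 holds the most members, 14; only 2 of them fell, 12 were not called, and their median was -0.04 where the 898 other genes had 0.59. Chromosome 3 held 4 members, of which none fell and Rpl22l1 rose, with a median of 0.06 against 0.57 for the other genes. On chromosomes 16 and 18 no member was called, with medians of -0.02 and -0.07 against 0.42 and 0.56. Of the 27 members with no call, 26 were on chromosomes whose other genes had a median above that of all genes tested. Such chromosomes also held members that fell, so they did not separate the calls. Besides those on chromosome 7, these were 4 of 5 members on chromosome 5, 5 of 6 on chromosome 9 and 5 of 7 on chromosome 11. On chromosome 4 it was 2 of 5, and on the X chromosome 2 of 4.

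Over the 17 chromosomes with at least 2 members, Pearson's r between the 2 medians was 0.91 and Spearman's rho 0.84. This is a description: the points come from the same 4 libraries, and they hold between 2 and 14 members each. Subtracting the median of the other genes on its chromosome from each member lowered the SD of the 79 differences to 0.22, where it was 0.31 before, and left 77 of the 79 below their chromosome. The 2 above it were Rpl7l1 and Rpl22l1, by 0.02 and 0.08. A narrower window gave a weaker relation. With up to 15 tested genes on each side of a member, its difference and the median of those neighbours had r = 0.69 and rho = 0.67 over the 79 members, 77 lay below their neighbours, and the median gap was -0.56. Subtracting the neighbours' median left an SD of 0.25. Gene copy number was not measured here, and its part in the differences between chromosomes was not tested.

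**Figure D2:**
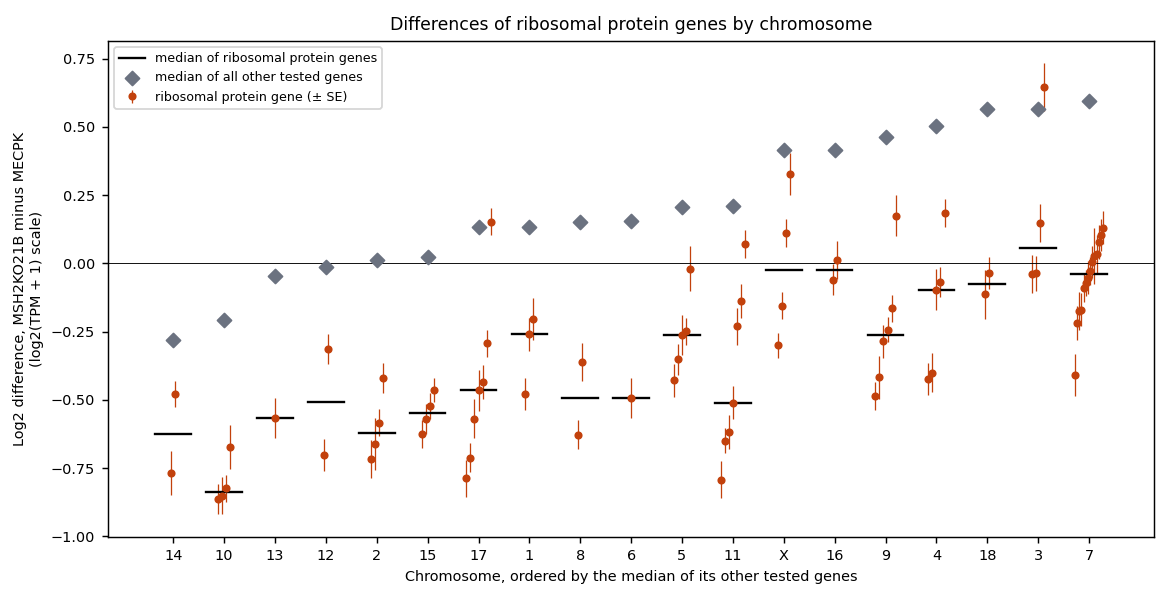
Log2 difference of each tested ribosomal protein gene, MSH2KO21B minus MECPK, with its standard error, by chromosome; bars are the medians of these genes and diamonds the medians of all other tested genes of the chromosome, which set the order. The bars lie below the diamonds on all 19 chromosomes and climb with them, and on chromosome 7 most points lie near 0.

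Levels among the members spanned a wide range within each line. The median member had 1406 TPM in MSH2KO21B and 1756 TPM in MECPK, and among tested members the mean level ran between 116 TPM for Rpl7l1 and 9026 TPM for Rpl41 in MSH2KO21B, and between 104 TPM and 16285 TPM for the same genes in MECPK. After Rpl41, the highest means over the 4 libraries were those of Rps29, Rpl39, Rplp1 and Rplp0, and within a line the order differed: Rps28, of the small subunit, averaged 3111 TPM in MSH2KO21B, above Rplp0 at 2996 TPM there. Rps29, a zinc-binding small-subunit protein, had 4544 and 4406 TPM in MSH2KO21B and 5626 and 5494 TPM in MECPK and fell by 0.31; it was not called without either MSH2KO21B library (-0.34 and -0.29). Rps29 therefore came second to Rpl41 in MECPK, whereas in MSH2KO21B Rpl39 had the higher mean, 4773 TPM against 4475 TPM for Rps29. The order of the levels was otherwise much alike in the lines: log2 levels of the 79 members had r = 0.94 between the line means and r = 0.998 between the libraries of each line. Within both lines replicate 1 gave the higher value for most members, 60 of 79 in MSH2KO21B and 75 of 79 in MECPK, so a library's members shifted together by a median of 0.04 and 0.10 on the log2 scale. Across the 79 members, level and coding length had rho = -0.43, and the difference between the lines had rho = -0.35 with level and 0.00 with coding length. The coding length used was that of each gene's transcript with the highest mean TPM, so the level also had a part in the choice of length. For Rps13 it was a form of 159 bases, where another form has 453, and for Rpl41 the form of 138 bases. These values share the 4 libraries and the TPM scale, which divides by length.

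The shortest of these genes shows how far a level rests on the length that TPM divides by. Transcripts in the table that differ in their untranslated parts but have identical coding sequences carried equal values in 1916 of 1923 groups, so the values behaved as if computed on coding sequences. The coding sequence of Rpl41 in GENCODE M21, from chromosome 10 and without the stop codon, is shown whole.
Rpl41: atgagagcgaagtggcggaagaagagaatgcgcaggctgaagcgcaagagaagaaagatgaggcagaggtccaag
It is 75 bases long, and the transcripts that carry it held 43.7% and 43.0% of the gene's TPM in MSH2KO21B and 43.8% and 41.8% in MECPK, with the rest on a form of 138 bases. Both forms fell, with differences of -0.83 and -0.86, although the level depends on the form. The split of reads between the forms is an estimate, and its part in their like falls was not tested.

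Near-copies share sequence with 23 of the members. Allowing at least 95% identity over at least 80% of a coding sequence, 32 other gene models in the table matched them. Not all of these are processed copies: some are annotated as protein-coding, and Gm45713, matched to Rpl13a, overlaps Rpl13a itself on chromosome 7. In 4 cases the copy had the same value as a transcript of its parent in every library, which leaves the split between them arbitrary. Rps12 and Rps12-ps3 were one such pair, and together they had 2860 TPM in MSH2KO21B and 4574 TPM in MECPK, with 50% assigned to the copy in both lines. Rps27 and Rps27rt were likewise split evenly, with 1980 TPM together in MSH2KO21B and 1790 TPM in MECPK. Rpl27-ps3 held 33.2% of the Rpl27 total in both lines, and Rpl10-ps3 held 13.7% of the Rpl10 total in MSH2KO21B and 13.6% in MECPK. Adding the copy left the differences of these 4 genes within 0.01, and Rpl10 was then no longer called (adjusted p = 0.0524 in limma).

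A few copies differed far more between the lines than their parents did, and they were chosen after their values were seen. Rps2-ps6, a processed copy of the small-subunit gene Rps2 at chr14:76236691-76237545, had 7.15 and 7.25 TPM in MSH2KO21B and 537 and 508 TPM in MECPK, a difference of -5.997 (SE 0.05). Rps2 itself, at chr17:24718116-24721929, had 2579 and 2407 TPM in MSH2KO21B and 3456 and 3284 TPM in MECPK, a difference of -0.44. The copies made 0.395% of the Rps2 total in MSH2KO21B and 13.5% in MECPK, and with them included the difference was -0.64. Gm5218, a copy of the large-subunit gene Rpl29, had 0.366 and 0.627 TPM in MSH2KO21B and 22.0 and 25.4 TPM in MECPK. Gm3550, another copy of Rpl29 annotated as protein-coding, had 0.399 and 0.426 TPM in MSH2KO21B and 16.9 and 17.6 TPM in MECPK. Against this, Rpl29 had 2347 and 2349 TPM in MSH2KO21B and 2795 and 2762 TPM in MECPK. Gm10036, a copy of Rpl11, had 2.22 and 2.12 TPM in MSH2KO21B and 20.8 and 17.99 TPM in MECPK, while Rpl11 itself rose. In all 4 copies both MSH2KO21B libraries lay far below both MECPK libraries.

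How close these sequences are is shown by the gap-free 60 bases, at positions 241 to 300 of the parent's coding sequence, where parent and copy differ by the most substitutions. The whole alignments held 7 substitutions and 24 gap bases for Rps2 and Rps2-ps6, and 24 substitutions and 15 gap bases for Rpl29 and Gm5218. Sequences are from GENCODE M21 transcripts on GRCm38, positions count from 1 at the A of the start codon, and capitals mark the bases that differ.
Rps2: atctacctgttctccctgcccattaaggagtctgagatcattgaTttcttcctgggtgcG
Rps2-ps6: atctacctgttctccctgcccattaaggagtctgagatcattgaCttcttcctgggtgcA
Rpl29: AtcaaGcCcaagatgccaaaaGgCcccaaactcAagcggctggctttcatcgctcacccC
Gm5218: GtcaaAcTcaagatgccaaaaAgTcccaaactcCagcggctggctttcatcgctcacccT
Rps2 and Rps2-ps6 differ there by T285C and G300A only. Rpl29 and Gm5218 differ at 7 bases, among them A241G and C300T. Only reads that hold none of the differing bases can be assigned equally to either gene. The stretch of Rpl29 and Gm5218 leaves shorter identical runs than that of Rps2 and Rps2-ps6. How much of the copies' values came from reads of the parent was not tested.

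**Figure D3:**
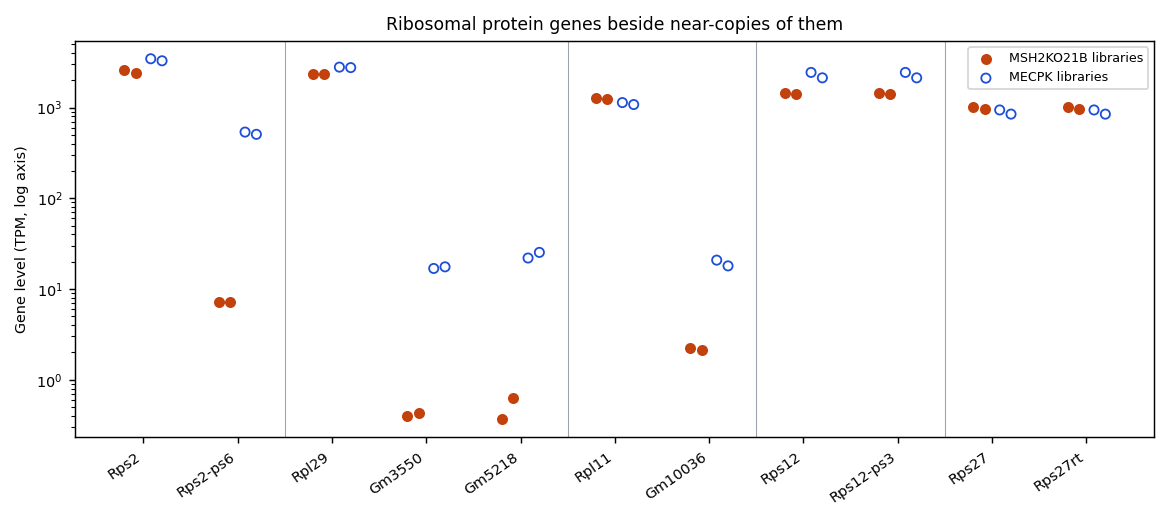
TPM of 5 ribosomal protein genes and of near-copies of them in each library, on a logarithmic axis, with each parent left of its copies and lines between the families. Rps2-ps6, Gm3550, Gm5218 and Gm10036 are far lower in MSH2KO21B (filled) than in MECPK (open) while their parents stay close, and Rps12-ps3 and Rps27rt sit at the level of their parents.

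Most transcript forms held much the same share of their gene in both lines. Of 194 member transcripts tested, 87 were lower and 10 higher in MSH2KO21B. Transcripts with the same coding sequence were counted separately here and mostly carry equal values, so these counts repeat some estimates. Over all 23169 transcripts tested 59.7% were called, 23% as lower and 36.7% as higher. Forms were compared by coding sequence, as 174 forms of 79 genes, of which 44 had more than 1 form. Only 4 forms of 2 genes differed by at least 10 percentage points in their share of the gene. Rpl22l1 rose through its 363-base form (transcript 206), which had 271 and 251 TPM in MSH2KO21B and 151 and 123 TPM in MECPK, while the 366-base form (transcript 201) had 152 and 126 TPM in MSH2KO21B and 120 and 121 TPM in MECPK and was not called. The 363-base form made 62.1% and 64.7% of the gene in MSH2KO21B and 54.5% and 49.7% in MECPK. The lines did not overlap in this share.

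Rps15a, a small-subunit gene on chromosome 7, was not called as a whole, at 1450 and 1419 TPM in MSH2KO21B and 1682 and 1548 TPM in MECPK (difference -0.17). Its 234-base form (transcript 205) was listed at 0 in both MSH2KO21B libraries and at 203 and 278 TPM in MECPK. Its 213-base form (transcript 203) made 43.3% and 46.4% of the gene in MSH2KO21B and 29.6% and 21.8% in MECPK. The 390-base form, shared by transcripts 201, 204 and 207, made 56.7% and 53.6% in MSH2KO21B and 58.3% and 60.3% in MECPK. The 2 libraries of a line did not overlap those of the other in the share of any of the 3 forms. Whether the value of 0 is an absence or a failed estimate between overlapping forms was not tested.

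**Figure D4:**
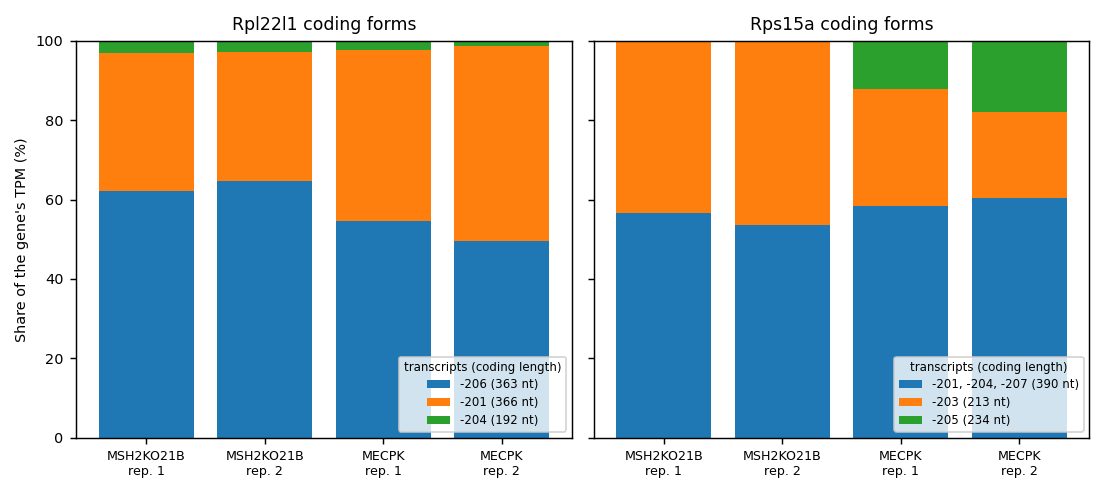
Share of the gene's TPM, in percent, held by each coding form of Rpl22l1 and Rps15a in each library, the MSH2KO21B libraries on the left of each panel; forms under 1% in all libraries are not drawn. The 363-base form of Rpl22l1 has a larger share in MSH2KO21B, and the 234-base form of Rps15a is seen only in MECPK.

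Genes that share the TOP motif or build the ribosome were compared with the ribosomal protein genes by their counts of calls, and members of these lists may sit in more than 1 list. Over all genes tested 29.7% fell and 46.6% rose, with a median of 0.19. These shares were 37.1% and 37.8% with median-ratio scaling, and 38.4% and 35.6% after quantile normalization. Of 22 other TOP mRNAs, mostly translation factors, 17 fell (77.3%) and 3 rose (13.6%), with a median of -0.35. Eef1g, a subunit of elongation factor 1, had 625 and 609 TPM in MSH2KO21B and 2077 and 1997 TPM in MECPK (difference -1.72), and Pabpc1, the poly(A)-binding protein, had 653 and 611 TPM in MSH2KO21B and 2046 and 2124 TPM in MECPK (difference -1.72). Tpt1, the translationally controlled tumour protein, had 1013 and 996 TPM in MSH2KO21B and 2766 and 2612 TPM in MECPK (difference -1.42). These falls were larger than any among the ribosomal protein genes. Vim, an intermediate filament of mesenchymal cells whose mRNA carries the motif, went the other way, with 522 and 532 TPM in MSH2KO21B and 1.93 and 1.54 TPM in MECPK. With median-ratio scaling 1 of the 22 was called higher.

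Among 20 genes of mTORC1 and TOP control, upstream of these mRNAs, 6 fell (30%) and 7 rose (35%), with a median of 0.05. The share that fell was near the 29.7% of all genes tested, and the share that rose was under their 46.6%. Larp1 had 59.9 and 59.8 TPM in MSH2KO21B and 58.7 and 68.1 TPM in MECPK and was not called (difference -0.08). The translation repressors Eif4ebp1 (133 and 138 TPM in MSH2KO21B, 332 and 301 TPM in MECPK) and Eif4ebp2 (113 and 119 TPM in MSH2KO21B, 183 and 230 TPM in MECPK) fell, with differences of -1.21 and -0.82. Eif4ebp3 rose by 0.73, and Rps6ka1, a kinase of the RSK family, rose by 2.12. Of 31 initiation factors 14 fell (45.2%) and 12 rose (38.7%), with a median of -0.02. Eif3j1, Eif3k and Eif2b4 rose by 1.65, 0.97 and 0.88, and Eif2s2 fell by 0.79. With median-ratio scaling 7 of the 31 were higher.

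Of the MYC network, whose founding member activates ribosome genes, 11 genes were tested. Of these 5 rose (45.5%) and 1 fell (9.09%), with a median of 0.23. The share that rose and the median were near the 46.6% and 0.19 of all genes tested. The share that fell was under their 29.7%. The one that fell was Myc, at 108 and 110 TPM in MSH2KO21B and 153 and 167 TPM in MECPK (difference -0.55, SE 0.06, adjusted p = 0.00113 in limma). Of the Max partners, Mxd3 had 23.2 and 24.6 TPM in MSH2KO21B and 5.80 and 5.19 TPM in MECPK, and Mxd1 had 16.1 and 12.8 TPM in MSH2KO21B and 3.09 and 4.76 TPM in MECPK. The MXD proteins compete with MYC for MAX. The other genes that rose most were Mycl (difference 1.504) and Mxd4 (difference 1.39). After quantile normalization 2 of the network were called lower.

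RNA polymerase I, which makes the ribosomal RNA precursor, had 8 of 15 genes higher (53.3%) and 3 lower (20%), with a median of 0.23. Both shares and the median were near those of all genes tested, 46.6%, 29.7% and 0.19. Taf1b, Rrn3, Taf1c and Cd3eap, which serve at its promoter or in the enzyme, rose by 1.04, 0.77, 0.74 and 0.67. With median-ratio scaling 5 were called higher and 5 lower. Of 35 factors of 60S assembly 15 fell (42.9%) and 11 rose (31.4%), with a median of -0.02. Ddx27, an RNA helicase, fell by 0.91, Midn fell by 0.63, and Rsl24d1 and Lsg1 rose by 0.71 and 0.61. Midn is in this list although its product, midnolin, is best known for carrying proteins to the proteasome. Of 40 factors of 40S assembly 18 fell (45%) and 11 rose (27.5%), with a median of -0.11. Rcl1, Rrp7a, Utp20 and Rrp12 fell, with differences of -1.12, -1.04, -0.96 and -0.95. The counts of assembly factors called higher were 7 of 35 and 7 of 40 after quantile normalization and 5 and 5 with median-ratio scaling.

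Among 15 genes of the small nucleolar RNPs and the nucleolus 6 fell (40%) and 4 rose (26.7%), with a median of -0.01. Over all genes tested these shares were 29.7% and 46.6%. Nolc1 and Npm1, both abundant nucleolar proteins, fell, with differences of -0.95 and -0.80, Snu13 fell by 0.47, and Nop53 rose by 0.66. Of 13 chaperones and import receptors for ribosomal proteins 5 fell (38.5%) and 2 rose (15.4%), with a median of -0.08. The importins Kpnb1 and Ipo5 fell, with differences of -0.77 and -0.57, and Bccip rose by 0.83. Nap1l1 rose by 2.51 with a wide spread, at 18.5 and 19.99 TPM in MSH2KO21B and 0.881 and 5.69 TPM in MECPK. With median-ratio scaling 8 of the 13 were lower, against 37.1% of all genes tested. A list around the sensing of ribosomal proteins held 9 genes, among them genes of the p53 pathway and of ribosome turnover. Of these 4 fell (44.4%) and 2 rose (22.2%), and 7 were called lower with median-ratio scaling. Mdm2, the ligase that Rpl5, Rpl11 and Rpl23 bind, had 29.1 and 30.3 TPM in MSH2KO21B and 124 and 129 TPM in MECPK (difference -2.05). Cdkn2a, whose ARF product also binds Mdm2, had 232 and 238 TPM in MSH2KO21B and 25.9 and 22.4 TPM in MECPK (difference 3.23). Nufip1, a receptor for ribosome autophagy, fell by 0.52, and the deubiquitinase Usp10 rose by 0.39.

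**Figure D5:**
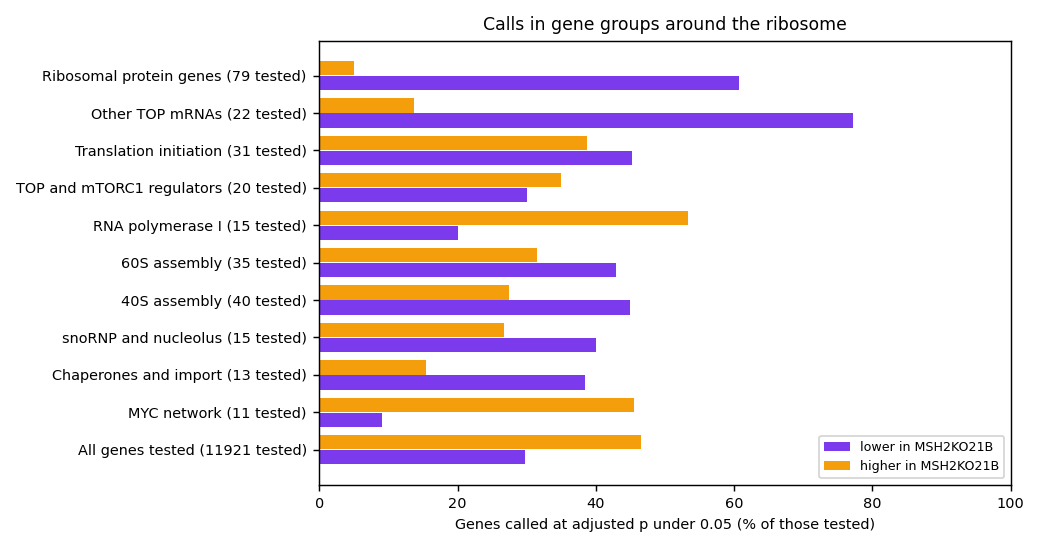
Percentage of tested genes called lower and higher in MSH2KO21B among the ribosomal protein genes, in gene groups around the ribosome and in all genes tested. Ribosomal protein genes, at 60.8% lower and 5.06% higher, and other TOP mRNAs stand out from all genes, at 29.7% and 46.6%, while the assembly, initiation and polymerase I groups hold many calls in both directions.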

How the data were processed

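The titles put 2 libraries in each line. The authors deposited TPM for each Ensembl transcript. The submitters' processing notes name kallisto 0.43.1 and GRCm38, and no source used here gives the transcript set, the options or the depth. Of 61440 transcripts, 60503 were paired with GENCODE M21 genes by identifier (56128 in the same version); the 937 others made up 0.733% to 0.944% of the TPM and were dropped. TPM were summed per gene. Genes reaching 1 TPM in 2 or more libraries were fitted on log2(TPM + 1), using limma 3.58.1 (R 4.3.3), its mean-variance trend and the line as the only term (2 residual degrees of freedom), Benjamini-Hochberg adjusted over all 11921 genes at 0.05; the pseudocount understates the change of low genes. The fit was tested on simulated data. Near-copies were found with blastn 2.17.0.

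The members and gene lists were chosen with earlier results of these data known. Named by rule were the 12 most negative called and 6 most positive members, the 5 highest and 5 lowest levels, role and paralog members, forms differing by at least 10 points, and, from each related list, up to 4 called genes with the largest differences plus Myc and Larp1. Alternatives were limma without trend, quantile normalization, median-ratio scaling, rescaling without mitochondrially encoded genes or without the members, other filters, a pseudocount of 0.1, a replicate block, each library left out, other transcript sums and near-copies added. The deviations of same-numbered libraries had a correlation of 0.02 over all genes tested, although replicate 1 was higher for most members in both lines, so the numbers were not taken as pairs. A gene that the rule would name is not reported here.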

Additional observations from a re-analysis of the deposited data

How the results depend on the processing

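All alternatives named under processing were run. Of the 48 falls, 28 were called under all 17 settings, and so was the rise of Rpl22l1. The count of members called lower lay between 46 and 62 except with no filter on low values (32) and with a library left out (29 to 52). The count called higher was 4, and became 2 without the trend, 7 after quantile normalization, 1 with median-ratio scaling, 2 when rescaled without the members, 1 with no filter and 1 to 6 with a library left out. The median relative to all genes was -0.21 after quantile normalization and -0.26 with no filter, where the median of all genes was 0. In percent of 1000000, the gap in the members' summed values was -5.59 with median-ratio scaling and -5.13 when rescaled without the members. Both scalings change the total of a library, so these are not gaps in share, which stays at -3.65 points. With only the highest transcript of each gene the gap was -2.68. The replicate numbers share only a name; with the replicate block 50 members were lower and 3 higher, Rpl7l1 losing its call.

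Differences changed sign with median-ratio scaling for Rpl11 (-0.0039), Rpl7l1 (-0.0347), Rps25 (-0.0150), Rps27 (-0.0407) and Rps3 (-0.155), and after quantile normalization for Rplp2 (0.0691) and Rps15a (0.00992). Rps15a was 0.649 with only its highest transcript (adjusted p = 0.0461 in limma). Rps3 was -0.0321 when rescaled without the members and -0.0408 to 0.108 with a library left out (-0.00904 without MSH2KO21B replicate 1, lowest without MECPK replicate 2). Rplp2 was -0.113 to 0.00718 with a library left out, positive without MECPK replicate 1. With median-ratio scaling the related lists had 1 TOP mRNA higher, 7 initiation factors higher, 5 polymerase I genes lower and 5 higher, 5 factors of 60S and 5 of 40S assembly higher, 8 chaperones lower and 7 sensing genes lower; after quantile normalization 1 ubiquitin fusion was lower, 7 factors of each assembly list higher and 2 MYC network genes lower. The causes were not tested. Counting depth limits every value by an unknown amount, and 2 libraries a line limit the precision.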
